A study of Mus musculus with 5 samples.

Results

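A set of 40 genes of glycolysis and of the response to hypoxia was examined in tumor endothelial cells (TECs) of hepatomas grown in mice, in liver sinusoidal endothelial cells (LSECs) and in a hepatoma cell line. The genes were listed by name, and all 40 were found among the 37074 gene names on the array. They comprise 24 glycolytic enzymes and transporters, 14 other targets of the hypoxia-inducible factors (HIFs), and the genes of 2 HIF subunits, Hif1a and Epas1. Gene expression was measured on 5 Agilent mouse arrays with 1 colour (Cy3), 1 array per condition. One array each was read for LSECs of mouse liver, for HAK-1B TECs, Hepa1-6 TECs and KYN-2 TECs, named after the implanted tumor line, and for Hepa1-6 cells in culture. By the labels, the LSECs and all TECs were of strain C57BL/6 and the cultured cells of strain C57L, and the labels state no age, genotype or drug treatment. According to the methods, the hosts were female C57BL/6 or BALB/c nude mice with tumor cells placed in the left liver lobe. The methods give the mice's age at purchase but not at cell isolation, and do not say which strain carried each tumor line. TECs were the CD31+ cells that magnetic beads drew from the digested tumor. The HAK-1B and KYN-2 lines come from human hepatomas, and Hepa1-6 from a mouse hepatoma. The array probes are of mouse genes, and whether RNA of the human tumor cells was read by them was not tested. The array paragraphs of the methods name Huh-7 where the labels and the other methods name HAK-1B.

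Glycolysis splits glucose into pyruvate and yields ATP without oxygen, and lactate dehydrogenase and the lactate transporters remove the pyruvate as lactate. Under low oxygen the HIF-alpha subunits escape hydroxylation and breakdown, pair with ARNT and bind a short core sequence in DNA, written ACGTG or GCGTG, near genes of glycolysis, pH control, mitochondrial turnover and collagen hydroxylation. Endothelial cells draw much of their ATP from glycolysis, and PFKFB3, which makes an activator of phosphofructokinase, is known for its role in vessel sprouting. Epas1 encodes HIF-2alpha, which endothelial cells express at high levels.

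To show where that core lies, the 250 bases before the RefSeq transcription start (GRCm38.p6) are given 5′ to 3′ in the direction of the gene for 6 members: the 4 with the largest differences below (Slc2a1, Slc16a3, Eno2 and Egln3), and Pgk1 and Bnip3 as a glycolytic enzyme and a HIF target with several cores. Capitals mark ACGTG or GCGTG, or the same read on the other strand (CACGT or CACGC). Where both strands match at the same place, as in CACGTG, the matches overlap.
Slc2a1 (chr4:119108495-119108744, plus strand): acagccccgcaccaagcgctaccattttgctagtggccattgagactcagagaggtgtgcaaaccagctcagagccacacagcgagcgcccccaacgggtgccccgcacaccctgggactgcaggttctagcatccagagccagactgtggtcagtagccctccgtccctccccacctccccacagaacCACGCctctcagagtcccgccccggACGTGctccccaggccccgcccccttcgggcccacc
Pgk1 (chrX:106186850-106187099, plus strand): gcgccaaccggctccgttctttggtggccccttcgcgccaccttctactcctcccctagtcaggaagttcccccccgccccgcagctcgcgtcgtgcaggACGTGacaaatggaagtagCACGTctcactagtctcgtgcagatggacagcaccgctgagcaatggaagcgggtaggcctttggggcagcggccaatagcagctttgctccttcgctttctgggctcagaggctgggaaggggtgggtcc
Eno2 (chr6:124769674-124769923, minus strand): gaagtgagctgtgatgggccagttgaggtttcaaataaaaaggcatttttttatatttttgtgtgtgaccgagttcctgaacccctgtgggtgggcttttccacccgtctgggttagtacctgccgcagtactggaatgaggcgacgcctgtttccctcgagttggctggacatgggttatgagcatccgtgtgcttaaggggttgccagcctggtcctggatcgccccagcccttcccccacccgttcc
Slc16a3 (chr11:120948817-120949066, plus strand): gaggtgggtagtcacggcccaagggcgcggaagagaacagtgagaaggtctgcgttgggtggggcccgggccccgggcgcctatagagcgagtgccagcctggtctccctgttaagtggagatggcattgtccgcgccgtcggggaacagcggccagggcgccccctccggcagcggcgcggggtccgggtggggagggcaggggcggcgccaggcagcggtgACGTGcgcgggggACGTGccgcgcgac
Egln3 (chr12:54203875-54204124, minus strand): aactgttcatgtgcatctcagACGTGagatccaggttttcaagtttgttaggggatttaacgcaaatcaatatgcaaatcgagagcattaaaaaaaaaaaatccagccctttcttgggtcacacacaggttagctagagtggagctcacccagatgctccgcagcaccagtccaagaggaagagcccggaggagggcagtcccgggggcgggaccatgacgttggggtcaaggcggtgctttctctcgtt
Bnip3 (chr7:138909507-138909756, minus strand): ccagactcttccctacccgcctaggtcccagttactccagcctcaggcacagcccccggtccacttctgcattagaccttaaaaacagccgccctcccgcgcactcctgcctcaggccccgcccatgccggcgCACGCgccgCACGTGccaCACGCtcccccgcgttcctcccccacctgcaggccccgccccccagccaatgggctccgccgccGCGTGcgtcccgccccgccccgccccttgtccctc
The Eno2 window holds no core, and Slc16a3 holds ACGTG at 2 places close to its start. A promoter was listed for 36 of the 40 members, and not for Slc2a3, Bnip3l, Ndrg1 and Epas1. Some genes have several listed starts. Of the 36 genes, 32 (88.9%) held ACGTG or GCGTG on either strand in at least 1 of their windows, against 41.5% of 27025 genes. Counted by window of the same length, it was 78.4% of 51 windows of the members and 38.6% of 32851 windows in all. The members' windows were also richer in G and C, with a median of 61.6% against 52.4%. It was present in 19 of the 22 members that were higher in all 3 TECs (below) and in 13 of the 14 other members with a promoter, in at least 1 window. A match of these letters is a description of the window and no evidence of binding.

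Signals are given as log2 of the background-subtracted intensity, quantile normalized over the 5 arrays, for the probe of each gene with the highest mean signal. All ratios to LSEC share the single LSEC array, no condition has a replicate, and an SD over the 3 TECs is a spread between tumors of different lines. Of the 40 members, 38 were well above background on all 4 endothelial arrays and 35 on all 5 arrays. The Hepa1-6 TEC array stood apart, with 78.1% of probes well above background against 44.6% to 57.6% on the others. The 3 TEC arrays shared 1 slide, and the LSEC array and the cultured-cell array were each on another, so the slides and the groups cannot be told apart. The endothelial identity of the samples was checked with 13 pan-endothelial markers, all of which were well above background on the 4 endothelial arrays, against 4 of 13 on the cultured-cell array. On the TEC arrays 13, 13 and 11 of these 13 markers (HAK-1B, Hepa1-6 and KYN-2) were at most 0.66 of their LSEC level. The same held for 9 of 10 LSEC markers on each TEC array. The log2 of the summed level of the 13 was 19.09 in LSEC and 16.24, 16.28 and 17.23 in the TECs. All 10 macrophage markers were well above background on the same 4 arrays. Their log2 sum was higher on each, at 19.72 in LSEC and 19.51, 18.75 and 18.98 in the TECs. Sums over different genes do not give shares of cells, and whether member signals came from endothelial cells or macrophages was not tested. Markers of neutrophils were at least 1.5-fold above LSEC for 8 of 10, 9 of 10 and 6 of 8 genes flagged present. The log2 of their summed level was 12.16 in LSEC and 17.15, 14.91 and 13.05 in the TECs. Markers of fibroblasts and stellate cells were higher for 5 of 8, 7 of 9 and 6 of 8 genes flagged present. The log2 of their summed level was 13.65 in LSEC and 14.55, 15.54 and 15.13 in the TECs. Erythroid markers were at most 0.66 of LSEC for 4 of 4, 4 of 4 and 3 of 4 genes flagged present. Summed over all 5 listed, their log2 level was 17.85 in LSEC and 12.48, 15.30 and 16.99 in the TECs. Cell cycle genes were higher for 8, 9 and 9 of 10 genes. Over all genes in these comparisons, 26.6%, 35.4% and 26.0% were at least 1.5-fold higher and 27.0%, 30.9% and 28.5% at most 0.66. Alpha-fetoprotein (Afp), a hepatoma marker, had log2 signals of 7.80 in LSEC, 6.21 in HAK-1B TECs, 15.38 in Hepa1-6 TECs, 8.06 in KYN-2 TECs and 15.92 in cultured Hepa1-6 cells. It was therefore high in the TECs from the same tumor line. Afp is 1 of 5 listed hepatoma genes, and H19, Igf2 and Dlk1 were not well above background in cultured Hepa1-6 cells. In Hepa1-6 TECs only Dlk1 was not well above background, so H19 and Igf2 did not follow the cultured line. The part of these other cells in the results below was not tested, and in such bulk samples fewer cells of a type and less RNA per cell cannot be told apart.

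Glycolytic genes were higher in TECs than in LSEC along nearly the whole pathway. At least 1.5-fold higher in all 3 TECs were 22 of the 40 members, against 10.4% of 26905 genes flagged present on at least 1 of the 4 endothelial arrays. These 22 comprised 17 of the 24 glycolytic members and 5 of the 14 other HIF targets. Only Epas1 was at most 0.66 of LSEC in all 3 TECs, a class that held 13.7% of all genes. The median log2 ratio of the glycolytic members was 1.25 in HAK-1B TECs, 1.38 in Hepa1-6 TECs and 1.77 in KYN-2 TECs, beside medians of -0.0023, 0.09 and -0.046 over all genes. No glycolytic member was at most 0.66 of LSEC in any TEC, classes that held 27.0%, 30.9% and 28.5% of all genes in the comparisons of HAK-1B TECs, Hepa1-6 TECs and KYN-2 TECs. In the same comparisons 19, 20 and 19 of the 24 were at least 1.5-fold higher, against 26.6%, 35.4% and 26.0% of all genes.

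**Figure D1:**
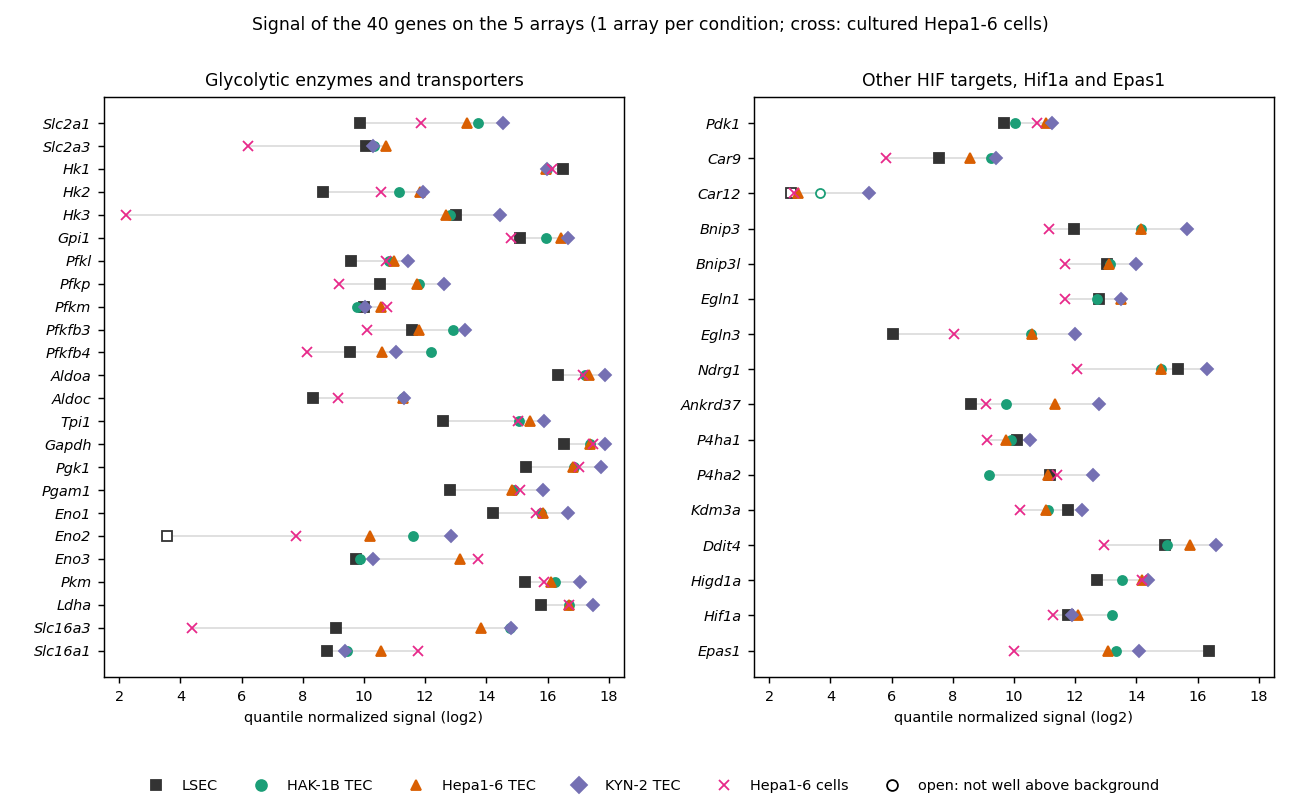
Quantile normalized log2 signal (x axis) of each of the 40 genes (y axis) on the 5 arrays, with 1 symbol per array and open symbols for probes not well above background. The KYN-2 TEC symbol is the rightmost for 18 of the 24 glycolytic genes and 14 of the 14 HIF targets, and Epas1 alone among the targets and factors has LSEC as its highest array.

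The largest differences at the entry of the pathway were in glucose uptake and phosphorylation. Slc2a1, the glucose transporter GLUT1 (probe at chr4:118809864-118809923, mm9, plus strand), had log2 signals of 9.86 in LSEC, 13.72 in HAK-1B TECs, 13.38 in Hepa1-6 TECs, 14.56 in KYN-2 TECs and 11.87 in cultured cells. All 3 TECs lay above the cultured cells, which lay above LSEC, and the TECs were 14.6-fold, 11.5-fold and 26.0-fold above LSEC (mean log2 ratio 4.03 ± 0.61, SD, n = 3). Slc2a3, the glucose transporter GLUT3, read 10.05 in LSEC, 10.34, 10.73 and 10.30 in the TECs in the same order, and 6.22 in cultured cells. By this probe it differed little among endothelial samples and was low in the cultured line. A second, dimmer Slc2a3 probe gave log2 ratios of -1.56 in HAK-1B TECs and -1.89 in Hepa1-6 TECs and was not well above background in KYN-2 TECs, so the result for Slc2a3 depends on the probe. Hk2, the hexokinase that many tumors induce, read 8.68 in LSEC, 11.15, 11.83 and 11.94 in the TECs and 10.55 in cultured cells. LSEC was its lowest array, and the mean log2 ratio of the TECs was 2.96 ± 0.43 (SD, n = 3). Hk1, the widely expressed hexokinase, read 16.50 in LSEC, between 15.93 and 16.00 in the TECs and 16.14 in cultured cells, a mean log2 ratio of -0.54 ± 0.03. A second Hk1 probe gave a mean log2 ratio of 0.64, so the direction for Hk1 depends on the probe. Hk3, a hexokinase typical of myeloid cells, read 13.00 in LSEC, 12.81, 12.66 and 14.45 in the TECs, and was not well above background in cultured cells. Beside it, the log2 of the summed level of 10 macrophage markers was 19.72 in LSEC, 19.51, 18.75 and 18.98 in the TECs and 12.47 in cultured cells, with Adgre1, Clec4f, Cd5l, Marco, C1qa and C1qb not above background in the last. Their part in the Hk3 signal was not tested.

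For the steps from glucose 6-phosphate to the split of the sugar, 6 of 8 members were at least 1.5-fold higher in all 3 TECs, and Pfkm and Pfkfb3 were not. Gpi1, which converts glucose 6-phosphate to fructose 6-phosphate, read 15.09 in LSEC, 15.95, 16.43 and 16.68 in the TECs and 14.80 in cultured cells. Its TEC signals all exceeded both other arrays. Phosphofructokinase commits the sugar to glycolysis and has 3 isoform genes. Pfkl read 9.56 in LSEC, 10.80, 10.99 and 11.43 in the TECs and 10.71 in cultured cells. Pfkp read 10.54 in LSEC, 11.80, 11.74 and 12.63 in the TECs and 9.19 in cultured cells. Pfkm, the muscle isoform, had a mean log2 ratio of 0.14 ± 0.40 and was not past 1.5-fold in all TECs. A second Pfkl probe well above background went the other way, with a mean log2 ratio of -0.95 against 1.51 for the probe used. Pfkfb4, which like Pfkfb3 makes and removes the activator of phosphofructokinase, read 9.53 in LSEC, 12.18, 10.58 and 11.05 in the TECs and 8.14 in cultured cells. It was the only glycolytic member past 1.5-fold in all 3 TECs that was highest in HAK-1B TECs. Pfkfb3 was 2.56-fold above LSEC in HAK-1B TECs and 3.39-fold in KYN-2 TECs, but 1.19-fold in Hepa1-6 TECs. Aldolase, which splits the 6-carbon sugar, has several genes. Aldoa read 16.33 in LSEC, 17.22, 17.36 and 17.88 in the TECs and 17.16 in cultured cells. Aldoc, the aldolase known from brain, read 8.33 in LSEC, 11.28, 11.26 and 11.30 in the TECs and 9.16 in cultured cells. Its log2 ratio of 2.95 ± 0.02 (SD, n = 3) had the smallest spread of the 40 members, and 2 further Aldoc probes gave 3.27 and 3.32.

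All members for the steps from triose phosphate to lactate were past 1.5-fold in every TEC except the muscle enolase Eno3. Tpi1, which interconverts the 2 triose phosphates, read 12.58 in LSEC, 15.07, 15.44 and 15.88 in the TECs and 15.04 in cultured cells. Gapdh, the dehydrogenase often used as a loading control, read 16.55 in LSEC, 17.39, 17.39 and 17.87 in the TECs and 17.47 in cultured cells. The Gapdh signal was thus lowest in LSEC, by a mean log2 ratio of 1.00 ± 0.28 (SD, n = 3), and 6 other Gapdh probes gave between 1.71 and 2.68. Pgk1, which makes the first ATP of the pathway, read 15.29 in LSEC, 16.87, 16.83 and 17.74 in the TECs and 17.02 in cultured cells. Pgam1, the phosphoglycerate mutase, read 12.81 in LSEC, 14.91, 14.84 and 15.84 in the TECs and 15.11 in cultured cells. For both genes the cultured cells lay between the KYN-2 TECs and the other TECs. Eno1, the widely expressed enolase, read 14.23 in LSEC, 15.78, 15.84 and 16.67 in the TECs and 15.62 in cultured cells. Pkm, the pyruvate kinase, read 15.27 in LSEC, 16.24, 16.11 and 17.05 in the TECs and 15.87 in cultured cells. Ldha, which turns pyruvate into lactate, read 15.79 in LSEC, 16.71, 16.71 and 17.47 in the TECs and 16.69 in cultured cells. In each of these 3 genes LSEC was the lowest array and KYN-2 TECs the highest.

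Eno2 and Slc16a3 stood out by size. Eno2, the enolase known from neurons (probe at chr6:124710388-124710447, mm9, minus strand), was not well above background in LSEC and read 11.61 in HAK-1B TECs, 10.18 in Hepa1-6 TECs, 12.83 in KYN-2 TECs and 7.77 in cultured cells. The dimmest probe that was well above background in LSEC served as the upper limit of Eno2 there. By that limit Eno2 was at least 122-fold, 45.4-fold and 284-fold higher in the TECs and at least 8.53-fold higher in cultured cells. With the normexp background correction, the mean log2 ratio of the TECs for Eno2 was 5.21, against 7.97 here. The limits for Eno2 therefore depend on the background correction. All 3 TECs lay above the cultured Hepa1-6 cells, and the HAK-1B and KYN-2 lines were not read on any array. Slc16a3, the lactate exporter MCT4 (probe at chr11:120820023-120820082, mm9, plus strand), read 9.10 in LSEC and 14.77, 13.81 and 14.82 in the TECs, and was not well above background in cultured cells. The TECs were 50.9-fold, 26.2-fold and 52.8-fold above LSEC, and Hepa1-6 TECs were at least 230.5-fold above the cultured cells of the same line by the same kind of limit. The TECs thus lay far above both LSEC and cultured Hepa1-6 cells. Slc16a1, the lactate transporter MCT1, showed another order, with 8.81 in LSEC, 9.46, 10.56 and 9.37 in the TECs and 11.78 in cultured cells. Eno3 had a like order, with 9.74 in LSEC, 9.87, 13.13 and 10.29 in the TECs and 13.73 in cultured cells. In both genes the Hepa1-6 TECs were the highest TEC and the cultured Hepa1-6 cells higher still, as were the Afp signals given above, and the part of tumor cell RNA in them was not tested.

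**Figure D2:**
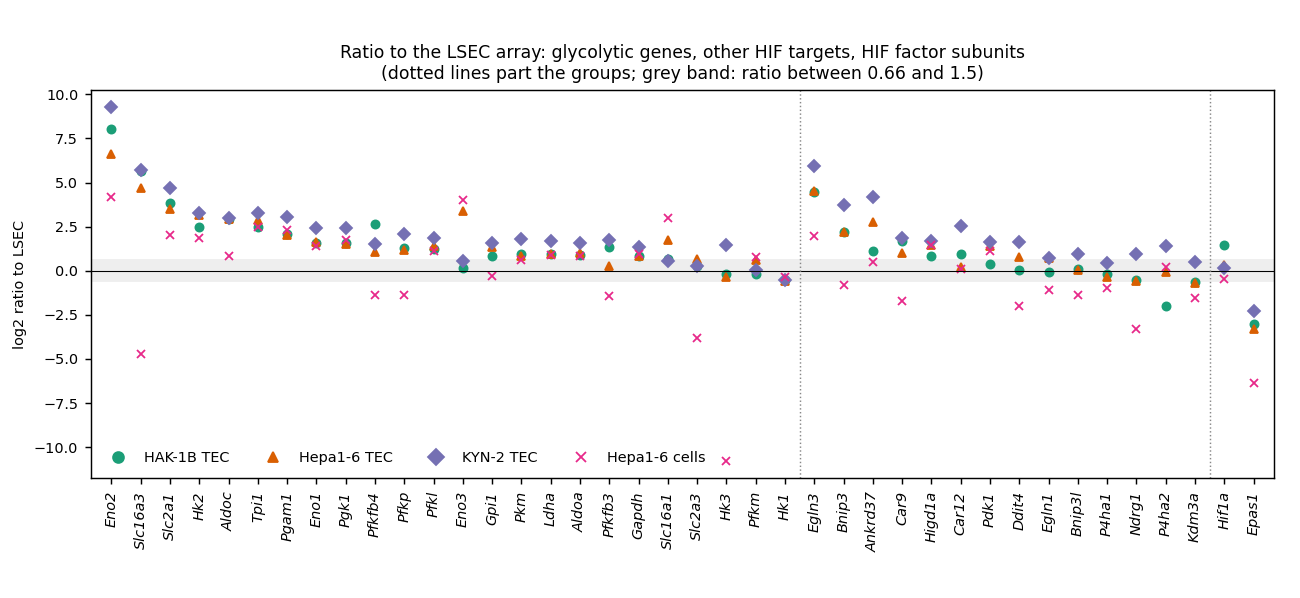
Log2 ratio to the LSEC array (y axis) of the 40 genes (x axis, by mean TEC ratio within each group) for the 3 TECs and cultured Hepa1-6 cells, with ratios between 0.66 and 1.5 in the grey band. TEC symbols of 17 of the 24 glycolytic genes lie above the band in all 3 tumors, while the cultured cells lie far below it for Slc16a3, Slc2a3 and Hk3; points for Eno2 and Car12 use an LSEC signal, and the cultured-cell points for Slc16a3, Hk3 and Car9 a cultured-cell signal, that was not well above background.

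The other HIF targets were less uniform than the glycolytic genes. Their median log2 ratio was 0.11 in HAK-1B TECs, 0.76 in Hepa1-6 TECs and 1.62 in KYN-2 TECs. At least 1.5-fold above LSEC were 5 of 13 flagged present in HAK-1B TECs, 8 of 14 in Hepa1-6 TECs and 12 of 14 in KYN-2 TECs, against 26.6%, 35.4% and 26.0% of all genes. The 12 include Car12, whose LSEC signal was not well above background and whose bound is below 1.5-fold. The 5 that were higher in all 3 TECs were Egln3, Bnip3, Ankrd37, Car9 and Higd1a. Without HAK-1B TECs, 8 of the 14 were higher in both other TECs, against 15.7% of the 26905 genes.

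Egln3 and Egln1 encode prolyl hydroxylases that mark HIF-alpha for breakdown, and Egln3 is itself a strong HIF target. Egln3 (probe at chr12:55280953-55281012, mm9, minus strand) read 6.05 in LSEC, 10.54 in HAK-1B TECs, 10.59 in Hepa1-6 TECs, 12.01 in KYN-2 TECs and 8.03 in cultured cells. The TECs were 22.5-fold, 23.2-fold and 62.1-fold above LSEC, and all lay above the cultured cells. Egln1 read 12.77 in LSEC, 12.70, 13.48 and 13.50 in the TECs and 11.67 in cultured cells, so HAK-1B TECs were level with LSEC to within 1.04-fold. Bnip3, a mitochondrial protein that promotes mitophagy, read 11.96 in LSEC, 14.14, 14.16 and 15.67 in the TECs and 11.14 in cultured cells. Its relative Bnip3l had a mean log2 ratio of 0.37 ± 0.49 (SD, n = 3) and passed 1.5-fold in KYN-2 TECs alone. Ankrd37, an ankyrin-repeat protein, read 8.59 in LSEC, 9.73, 11.35 and 12.78 in the TECs and 9.07 in cultured cells. Its ratios to LSEC spread from 2.20-fold in HAK-1B TECs to 18.3-fold in KYN-2 TECs. Higd1a, a mitochondrial protein, read 12.72 in LSEC, 13.54, 14.18 and 14.39 in the TECs and 14.18 in cultured cells. Cultured cells and TECs overlapped for this gene.

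Carbonic anhydrases hydrate carbon dioxide and help to control pH outside the cell. Car9, a marker of hypoxic tumors, read 7.55 in LSEC and 9.26, 8.57 and 9.40 in the TECs, and was not well above background in cultured cells. It was 3.27-fold, 2.03-fold and 3.59-fold higher in the TECs than in LSEC, and at least 6.11-fold higher in Hepa1-6 TECs than in cultured cells. Car12 was not well above background in LSEC, HAK-1B TECs and cultured cells, and in KYN-2 TECs it was at least 1.49-fold above LSEC. Pdk1, which shuts pyruvate out of the mitochondrial pathway, was 1.29-fold, 2.62-fold and 3.03-fold above LSEC. The 5 Pdk1 probes well above background disagreed, with mean log2 ratios from -0.71 to 1.68. Ddit4, an inhibitor of mTORC1, was 1.03-fold, 1.73-fold and 3.13-fold above LSEC. Both genes were thus graded in the order HAK-1B, Hepa1-6 and KYN-2. Ndrg1, a stress-response protein, had log2 ratios of -0.55, -0.57 and 0.96. Kdm3a, a histone demethylase, gave -0.66, -0.71 and 0.48. P4ha1, a subunit of collagen prolyl hydroxylase, gave -0.17, -0.35 and 0.43. In these 3 genes HAK-1B and Hepa1-6 TECs lay below LSEC and KYN-2 TECs above it by the probes used. For P4ha1 and Kdm3a that order depends on the probe, since second probes well above background on the endothelial arrays gave -1.12, 0.19 and -0.74 for P4ha1 and -0.19, -0.97 and -0.49 for Kdm3a. P4ha2, the related subunit, read 11.19 in LSEC, 9.17, 11.13 and 12.59 in the TECs and 11.40 in cultured cells. It was the only member past 1.5-fold in 1 TEC and at most 0.66 in another, which 8.67% of all genes were.

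KYN-2 TECs carried the highest signal of the 3 TECs for 18 of the 24 glycolytic members and for 14 of the 14 other HIF targets. With Epas1 added, this made 33 of 40 members, whereas KYN-2 TECs were the highest for 27.4% of the 26905 genes and for 31.8% of the 16976 genes well above background on all 4 endothelial arrays. HAK-1B TECs were the highest for 30.6% and Hepa1-6 TECs for 42.0% of the 26905 genes. The genes were read on the same arrays and are not independent, and with 1 array per tumor line the order of the lines has no replicate check. With other scalings, background correction, the deposited table or the mean of all probes, all chosen for this count after seeing the data, between 30 and 34 members had KYN-2 TECs as their highest TEC. For several members the lead over the next TEC was small, as for Aldoc, Hk2 and Slc16a3 above.

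By the probes used, the genes of the HIF subunits did not follow their targets. Epas1 (probe at chr17:87232615-87232674, mm9, plus strand) read 16.37 in LSEC, 13.33 in HAK-1B TECs, 13.08 in Hepa1-6 TECs, 14.09 in KYN-2 TECs and 9.999 in cultured cells. LSEC was the highest array, and the TECs were 8.23-fold, 9.78-fold and 4.88-fold lower. Beside it, the median log2 ratio of the 13 pan-endothelial markers was -2.85, -2.61 and -1.64 in the same TECs, and their part in the Epas1 difference was not tested. Hif1a read 11.77 in LSEC, 13.22, 12.10 and 11.90 in the TECs and 11.27 in cultured cells. By this probe only HAK-1B TECs passed 1.5-fold, with a ratio of 2.73. A second Hif1a probe well above background lies on the opposite strand to the probe used, by the array's coordinates. It gave log2 ratios of 3.04, 2.09 and 3.32 in the TECs, with a mean of 2.82 against 0.64 for the probe used. The result for Hif1a thus depends on the probe. HIF-alpha subunits are controlled largely as proteins, which the arrays do not measure.

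The methods call a gene by size, when a ratio of 1.5 or more comes with a Z-score of 2 or more, or a ratio of 0.66 or less with a Z-score of -2 or less, and few members passed. Because of the spread of all ratios, the Z-score required 7.25-fold in HAK-1B, 11.4-fold in Hepa1-6 and 6.79-fold in KYN-2 TECs. Slc2a1, Eno2, Slc16a3 and Egln3 passed as higher in all 3 TECs, a class of 0.424% of all genes, and 0 members passed as lower in all 3, a class of 0.728%. Slc2a1 in Hepa1-6 TECs lay just inside the limit. In HAK-1B TECs Aldoc passed as higher as well, and Epas1 passed as lower, as did 3.96% of all genes. No member passed as lower in Hepa1-6 TECs or KYN-2 TECs, where 2.04% and 2.9% of all genes did. In KYN-2 TECs, Hk2, Aldoc, Tpi1, Pgam1, Bnip3 and Ankrd37 passed as well, so that 5, 4 and 10 members were higher by this rule, against 3.13%, 4.48% and 3.67% of all genes. With the normexp background correction the number passing in either direction was 11 in HAK-1B TECs and 12 in Hepa1-6 TECs, against 6 and 4 here. With normalization by pair, as the methods describe, or scaling to the 75th percentile, it was 4 in HAK-1B TECs, and with the mean of all probes it was 3 in Hepa1-6 TECs. In limma, with the 3 TECs as 1 group and the LSEC array, a single one, taken to vary as they do, 0 members and 0 of 42113 probes reached a Benjamini-Hochberg adjusted p of 0.05 with 2 residual degrees of freedom. The smallest adjusted p from limma was 0.443, shared among others by Slc2a1, Eno2, Slc16a3 and Egln3. At an unadjusted limma p under 0.05 were 13 members, 12 of them higher in TECs and Epas1 lower, against 8.51% of all probes.

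Many members have several probes on the array, and the probe used was often the one with the smallest difference. Of 19 members with at least 2 probes well above background on the 4 endothelial arrays, the probe used had the lowest mean TEC ratio in 10 and the highest in 5. For Pkm the probe used gave 1.19 and the others 1.79 to 1.98, and for Ldha the values were 1.18 and 2.03. For Tpi1 one of 3 other probes gave -0.23, against 2.88 for the probe used. Pfkl and Pdk1 had probes past both thresholds in opposite directions.

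**Figure D3:**
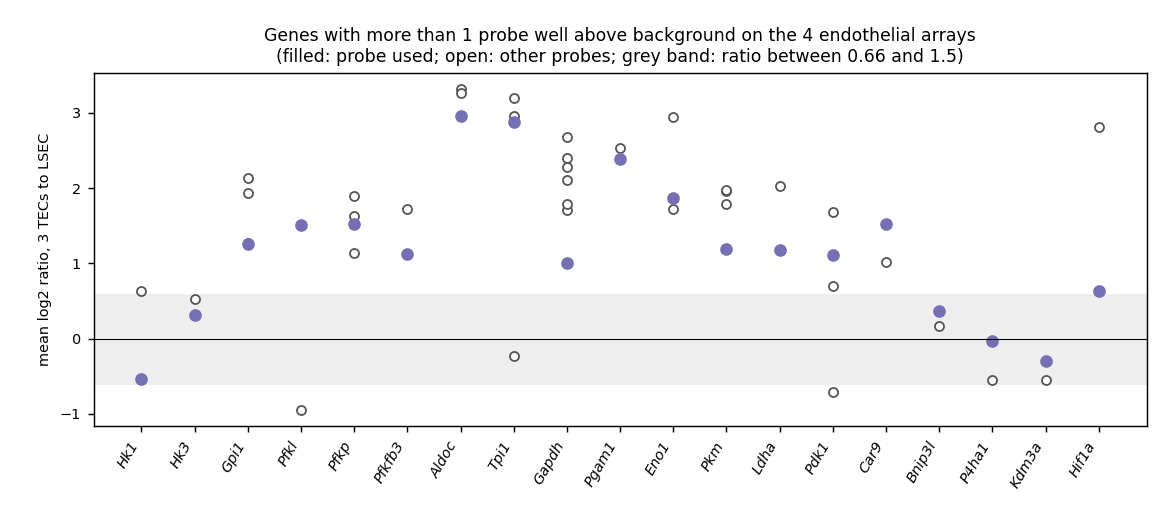
Mean log2 ratio of the 3 TECs to LSEC (y axis) for every probe well above background on the 4 endothelial arrays, in the 19 members with at least 2 such probes (x axis), with the probe used filled and ratios between 0.66 and 1.5 in the grey band. Gapdh, Pkm and Ldha have their lowest value in the probe used, and Pfkl, Tpi1 and Pdk1 each have a probe below 0.

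In cultured Hepa1-6 cells the glycolytic genes and the other HIF targets lay on opposite sides of LSEC by their medians. Against LSEC, 16 of the 24 glycolytic members were at least 1.5-fold higher and 6 were at most 0.66, with 36.2% and 37.8% of all genes in these classes, and the median log2 ratio was 0.87 beside -0.019 over all genes. The 6 lower ones were Slc2a3, Hk3, Pfkp, Pfkfb3, Pfkfb4 and Slc16a3, for which the last was at least 8.79-fold lower. Of the other HIF targets 3 were higher and 8 lower, with a median of -0.98. The 8 lower ones were Car9, Bnip3, Bnip3l, Egln1, Ndrg1, P4ha1, Kdm3a and Ddit4. Ndrg1 was 9.96-fold and Ddit4 4.01-fold lower in cultured cells than in LSEC. By the rule that adds the Z-score (explained above), 0 members passed as higher, and Hk3, at least 131-fold lower, and Epas1, 83.0-fold lower, passed as lower, with 2.57% and 4.85% of all genes in these classes.

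Hepa1-6 TECs were also compared with the cultured cells, since both carry the name of 1 tumor line. Of the 14 HIF targets, 10 were at least 1.5-fold higher in the TECs and 0 at most 0.66, with 34.3% and 32.4% of all genes in these classes, and the median log2 ratio was 1.63 beside 0.003. For the glycolytic members the median was 0.34, with 11 of 24 higher and Eno3 and Slc16a1 lower. Scaled to the 75th percentile of each array, that glycolytic median was -0.066, so its direction depends on the scaling. Aldoa, Gapdh, Pgk1, Pgam1, Eno1, Pkm and Ldha each differed by at most 1.21-fold between these 2 samples by the probe used. Other probes of the same genes differed more, as for a Gapdh probe with 13.21 in the TECs and 14.55 in cultured cells and an Eno1 probe with 11.80 and 12.58. Slc2a3, Hk3 and Slc16a3 passed the rule of size as higher in TECs, against 4.96% of all genes.

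Further genes of the same pathways were read for context, from lists drawn up with earlier results of these data known. Of 31 other genes of the HIF pathway, 12 were at least 1.5-fold higher and 0 at most 0.66 in all 3 TECs. Among all genes, 10.4% and 13.7% were in these classes. The median log2 ratio of the list was 1.06 over the mean of the TECs, beside 0.0995 over all genes. Ak4, an adenylate kinase of mitochondria, read 5.61 in LSEC, 8.81, 9.95 and 11.38 in the TECs and 9.80 in cultured cells. Vldlr, the VLDL receptor, was not well above background in LSEC and read 6.69, 9.99 and 10.40 in the TECs. Both were among the genes with the largest mean ratio, and at the other end stood Adm, Tmem45a and Insig2. Adm, the vasodilator adrenomedullin, had log2 ratios of -2.80, -1.45 and 1.00 and so differed in sign between tumors. Tmem45a was not well above background in HAK-1B TECs, and Insig2, a regulator of sterol synthesis, had a mean log2 ratio of -0.69 ± 0.16 (SD, n = 3).

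Of 24 other genes of glucose and pyruvate metabolism, 6 (25.0%) were higher and 1 (4.17%) lower in all 3 TECs. Over all genes these classes held 10.4% and 13.7%. The median log2 ratio of the list was -0.04, near that of all genes. Slc2a6, a glucose transporter family member, had a mean log2 ratio of 3.16 ± 1.18 (SD, n = 3), and the gene the array names Pgm2 gave 1.82 ± 0.66. Pgam2, the muscle mutase, is counted among the 6 but was not well above background in LSEC, and its bound in HAK-1B TECs was at least 1.09-fold. Pdk4, which inhibits pyruvate dehydrogenase in fasting, was the one lower gene and read 11.80 in LSEC, 7.84, 9.82 and 9.85 in the TECs and 7.48 in cultured cells. Ldhb, the lactate dehydrogenase of oxidative tissues, read 13.12 in LSEC and 12.85, 11.34 and 11.08 in the TECs. The gene the array names Pgm1 had a mean log2 ratio of -0.66 ± 0.48. Of 11 liver isozymes and gluconeogenic genes, 1 (Pck1) was at most 0.66 of LSEC in all 3 TECs, against 13.7% of all genes. By ratio 1 was at least 1.5-fold higher, against 10.4%, and the median of the list was -0.80. Slc2a2 was not well above background in LSEC and HAK-1B TECs, so no ratio is given for it, and Pck1 and Gys2 were well above background in LSEC and Hepa1-6 TECs but in neither other TEC. Pygl and Pfkfb1 had mean log2 ratios of 0.79 ± 0.40 and 0.76 ± 0.94. The log2 of the summed level of 10 hepatocyte markers stood at 15.22 in LSEC, 10.42, 16.04 and 11.06 in the TECs and 14.55 in cultured cells. In cultured cells only 3 of the 10 were well above background, with a median log2 signal of 3.08 against 9.58 in LSEC. The part of hepatocytes in the signals of the liver isozymes was not tested.

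**Figure D4:**
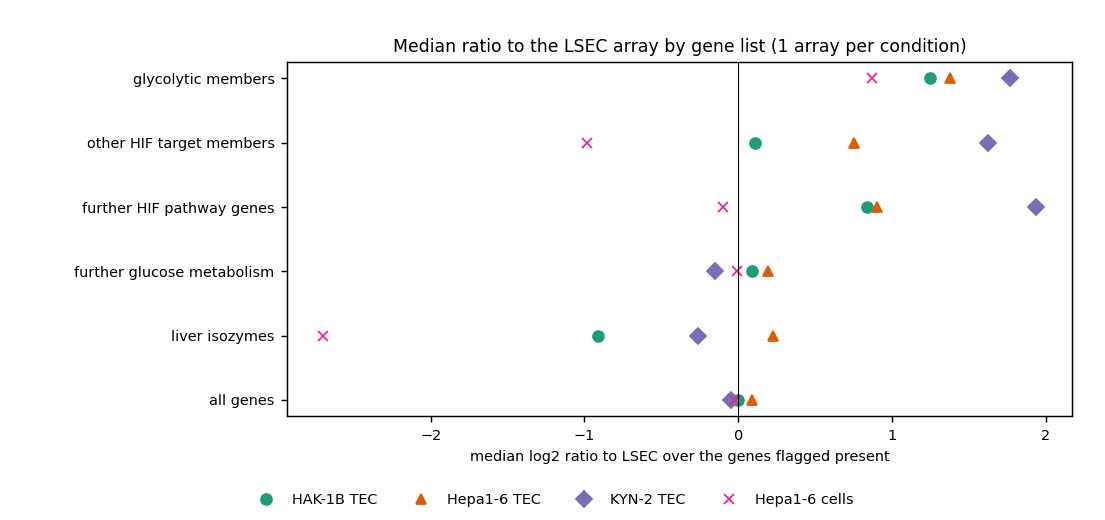
Median log2 ratio to the LSEC array (x axis) over the genes flagged present in 6 gene lists (y axis), for the 3 TECs and cultured Hepa1-6 cells. The glycolytic members lie between 1.25 and 1.77 in the TECs and at 0.87 in cultured cells, the other HIF targets spread from 0.11 to 1.62 in the TECs and lie at -0.98 in cultured cells, and all genes together lie near 0.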

How the data were processed

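RNA of LSECs, of TECs from 3 tumors and of cultured Hepa1-6 cells was read on 1 array each. The authors used Cy3 label, 60-mer mouse arrays and Agilent Feature Extraction (9.5.1.1 per the labels, 10.7.1.1 in the file header). The authors deposited linear intensity values for every spot, after background subtraction, with raw spot means, local background and flags, and a table of quantile normalized intensity values whose column medians were all 43.0 and whose ranks matched the scanner values. Precision is limited by having 5 arrays.

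Here, spots of a probe were averaged without control spots, giving 56605 probes. Probe coordinates are mm9, from the files. Quantile normalization of log2 signals took all 5 arrays together, whereas the methods describe the pair compared. The probe with the highest mean stood for each gene, and gene names are those of the array. A probe was flagged present when positive and well above background. As in the methods, probes had to be present on at least 1 compared array, and 4460 lincRNA probes were left out of the Z-score. The Z-score was the log2 ratio minus the mean over kept probes, divided by the SD. For a gene not well above background on an array, the bound used the lowest signal well above background there. No test applies to 1 array per condition. limma 3.58.1 (R 4.3.3) compared the 3 TECs with LSEC, with Benjamini-Hochberg adjustment, after both limma and the rule of size were tested on simulated data. The simulated arrays varied less than the TEC arrays did, so that run is no measure of accuracy on these data. Other steps used Python 3.11.15, numpy 2.4.6 and pandas 2.3.3.

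The members and lists were chosen with earlier results of these data known. All members may be named. Values on 5 arrays are given for members past 1.5 or 0.66 alike in all TECs, members of mixed direction, Hif1a and Epas1, and of each further list up to 3 genes higher and 3 lower by mean ratio, some of which are not reported here. Promoters are from RefSeq (GRCm38.p6). Alternatives were scaling to the 75th percentile, normalization by pair, normexp with an offset of 50, the deposited table, the mean of all probes, other flag filters, other sizes of ratio, and each TEC left out. A slide block could not be fitted.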

Additional observations from a re-analysis of the deposited data

Results flagged for a closer look

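P4ha2, a subunit of collagen prolyl hydroxylase, differed between tumors in the sign of its ratio to LSEC, with a log2 ratio of -2.02 in HAK-1B TECs and 1.41 in KYN-2 TECs. Each value rests on 1 array, and the difference between the tumors was not tested.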

How the results depend on the processing

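No paired analysis was possible because there was 1 array for each condition, and a slide block was not run since every slide held 1 group. The count of members at least 1.5-fold higher in all TECs was 22, between 16 (ratio of 2) and 25 under the alternatives, and between 23 and 25 with 1 TEC left out. The count lower in all TECs was between 1 and 2 with 1 TEC left out (Epas1, and Kdm3a without KYN-2 TECs), and 2 with the mean of all probes. Scaling to the 75th percentile moved the median of all kept probes to 0.43 in Hepa1-6 TECs against LSEC (0.047 otherwise) and to 0.32 against cultured cells (-0.064 otherwise), and it gave glycolytic medians of 2.31 for KYN-2 TECs, 1.53 for cultured cells against LSEC and -0.066 for Hepa1-6 TECs against cultured cells. With the mean of all probes, the glycolytic medians were 1.60 in HAK-1B and 2.12 in KYN-2 TECs. The number of members past the rule of size moved with normexp to 11 for HAK-1B TECs, 12 for Hepa1-6 TECs and 7 for Hepa1-6 TECs against cultured cells. With the flag present on every compared array it was 9 for Hepa1-6 TECs, 4 for cultured cells against LSEC and 9 for Hepa1-6 TECs against cultured cells. By ratio alone it was 28 in HAK-1B TECs, 30 in Hepa1-6 TECs, 32 in KYN-2 TECs, 34 for cultured cells and 25 for Hepa1-6 TECs against cultured cells. The cause of these shifts was not tested, apart from the Z-score, whose removal admits smaller ratios. limma called 0 members in every alternative run, with a smallest adjusted p between 0.0576 (normexp) and 0.982 (without KYN-2 TECs) and between 9 and 21 members at an unadjusted p under 0.05. Of 320 mean TEC ratios of members recomputed, 296 stayed within 1 SD of the TEC ratios of that member and 24 moved further. Of those past the threshold, 0 changed sign. Leaving 1 TEC out cannot move a mean by a full SD of the same ratios, so those runs could not add to the 24. Members with 1 probe cannot change under the mean of all probes. The count of 296 was thus partly fixed in advance and is no measure of stability. The mean of all probes gave 0.26 for Pfkl, 0.94 for Pgk1 and -1.04 for Slc2a3, each of which includes dimmer probes. Scaling to the 75th percentile gave 0.0075 for Hk1. Normexp moved Eno2 from 7.97 to 5.21, Egln3 from 4.99 to 3.98, Aldoc from 2.95 to 2.71 and Hk1 from -0.535 to -0.497.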
